A study of Mus musculus with 9 samples.

Results

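Colon miRNAs of mice that received royal jelly acid (RJA) while drinking dextran sulfate sodium (DSS) were compared with those of untreated mice, to ask which miRNAs were still away from the untreated level despite the treatment. All mice were wild-type C57BL/6J and ate a normal diet. The DSS_RJA mice drank water with 2.5% (w/v) DSS and received RJA at 10 mg per kg body weight, in 0.2 mL by gavage each day, whereas the Control mice drank water without DSS and have no gavage on record. DSS, RJA and gavage therefore cannot be told apart in this comparison. A further group, DSS, drank DSS without RJA and appears here only as values beside the comparison. Small RNA from colon was sequenced in 3 samples per group, 9 in all, and the 6 DSS_RJA and Control samples were fitted on their own. The labels do not tie a sample to an animal, so the spread behind each p-value is that of these samples, which may be technical. The miRNAs described are the entries with a mouse miRNA name and at least 10 reads in 3 or more of the 6 libraries, 415 of the 1155 entries in the table. Of these, 348 had at least 10 reads in all 6 libraries, 3 passed only through DSS_RJA (miR-1945, miR-296-3p and miR-383-5p) and 2 passed only through Control (miR-136-5p and miR-183-3p).

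A miRNA is a short RNA cut from a hairpin precursor, and each hairpin can give a 5p and a 3p arm. Once loaded into an Argonaute protein it pairs with messenger RNAs mainly through its seed, bases 2 to 8 from its 5′ end, and lowers the output of those messages, so miRNAs with a shared seed have overlapping targets. In the colon the miR-192, miR-194 and miR-200 families mark epithelial cells and miR-143 and miR-145 mark smooth muscle, while miR-146a is induced by NF-kB signalling and miR-132 and miR-212 by the transcription factor CREB. DSS injures the colon epithelium and is widely used to induce colitis in mice.

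The mature sequences that the results turn on are given 5′ to 3′ from RefSeq (GRCm38.p6), where 353 of the 415 members had an entry, with the seed in capitals. The first set holds the 2 miRNAs that passed the test in DSS_RJA against Control, with miR-132-3p, the neighbour of miR-212 that has the same seed.
miR-212-3p: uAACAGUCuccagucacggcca
miR-132-3p: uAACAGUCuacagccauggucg
miR-1983: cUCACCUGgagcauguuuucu
The second set holds miR-146a-5p and miR-146b-5p, which share a seed, and 3 miR-30 family members whose values all lay under Control.
miR-146a-5p: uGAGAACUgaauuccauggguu
miR-146b-5p: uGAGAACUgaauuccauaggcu
miR-30a-5p: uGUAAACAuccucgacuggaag
miR-30c-5p: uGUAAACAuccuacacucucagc
miR-30e-5p: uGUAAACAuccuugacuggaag
The third set is the miR-200 family, which falls into a pair of seed groups, miR-200a and miR-141 in the first and the rest in the other.
miR-200a-3p: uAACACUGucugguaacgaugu
miR-141-3p: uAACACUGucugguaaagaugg
miR-200b-3p: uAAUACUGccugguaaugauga
miR-200c-3p: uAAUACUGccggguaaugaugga
miR-429-3p: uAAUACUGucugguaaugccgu
The last set holds the intestinal miRNAs miR-192-5p and miR-215-5p, which share a seed, and miR-194-5p, which is cut from the same transcripts as these.
miR-192-5p: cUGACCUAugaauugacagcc
miR-215-5p: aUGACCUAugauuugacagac
miR-194-5p: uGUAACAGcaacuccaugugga

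Library totals were 5985153, 6167263 and 6164500 reads in DSS_RJA and 7514959, 8280980 and 7057285 reads in Control. miR-143-3p alone took 68.7% to 71.8% of the reads in DSS_RJA and 66.4% to 70.9% in Control, so the depth left for other miRNAs was far below the totals. Levels are given as CPM, counts per 1000000 reads of a library size scaled by TMM. The library DSS_RJA 3 stood apart from the others. Among the 240 members with a mean of at least 10 CPM, the number more than 2-fold from the Control mean was 6, 15 and 55 in DSS_RJA 1, 2 and 3, against 1, 0 and 1 in Control 1, 2 and 3. The spread over 3 libraries, as the range of log2 CPM, was larger in DSS_RJA than in Control for 184 of these 240, with medians of 0.586 in DSS_RJA and 0.267 in Control. A range over 2 log2 units was seen for 28 of the 240 in DSS_RJA and for 0 in Control. Where a log2 fold change printed for a named miRNA, DSS_RJA over Control, moved by over 1.5 times or turned its sign without DSS_RJA 3, that value is given too. A miRNA given by its CPM alone carries no such value.

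2 miRNAs passed the test, miR-212-3p and miR-1983, and both rose in DSS_RJA. They are 0.482% of the 415 members at an adjusted p under 0.05 in edgeR's quasi-likelihood test, and no member passed in the lower direction. At an unadjusted p under 0.05 there were 66 members, 15.9%, of which 35 were higher and 31 lower in DSS_RJA. The log2 fold changes of DSS_RJA over Control were centred near 0, with a median of 0.01, 209 positive and 206 negative values. The 3 DSS_RJA libraries lay wholly outside the range of the 3 Control libraries for 104 members, 25.1%, of which 46 (11.1%) lay above and 58 (14%) below. Below Control lay 12 of the 175 members under 10 CPM and 19 of the 133 at 10 to 100 CPM. At 100 to 1000 CPM it was 14 of 70, and at 1000 CPM or more 13 of 37. Those above were 24, 16, 4 and 2 in the same order. The 14% is thus low as a background for abundant members. The read minimum favoured a lack of overlap for the 3 members that passed only through DSS_RJA and the 2 only through Control. Scaling by library size alone turned the split of 46 above and 58 below into 83 above and 26 below, as it moved the median of all members to 0.20. The split was also 52 above and 51 below with DESeq2's size factors, 54 and 45 with 1 of each near-identical set, and 57 and 44 with all 9 samples. The number passing the test was 17 without DSS_RJA 3, 15 without DSS_RJA 1, and 0 without DSS_RJA 2 or any 1 of the Control libraries.

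For 207 members, 49.9%, the 95% interval of the log2 fold change stayed within 1 log2 unit of 0, so that a difference over 2-fold from Control in either direction lay outside it. This held for 75 of the 107 members with a mean of at least 100 CPM and for 132 of the 308 scarcer ones. The intervals of 19 members reached past a 2-fold difference in both directions, and nothing can be said of where they stand. Of the 104 members whose groups did not overlap, 32 had an interval within the 2-fold band. A member that missed the test is thus not shown to be at the untreated level, and its interval gives what the data allow.

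**Figure D1:**
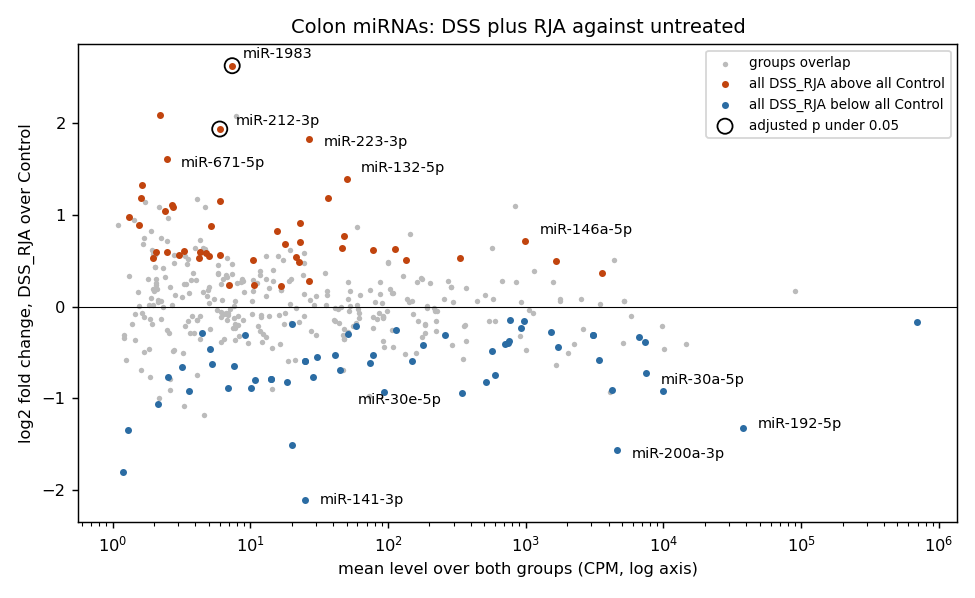
Each point is 1 of the 415 members, with its mean CPM over DSS_RJA and Control on a log axis and the log2 fold change of DSS_RJA over Control on the vertical axis. Orange points had all 3 DSS_RJA libraries above Control (46), blue points had all 3 below (58), grey points had groups that overlapped, and circles mark the 2 members that passed the test, both among the scarce miRNAs on the left.

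The cluster of miR-212 and miR-132 stayed above the untreated level in all 3 DSS_RJA libraries. Both hairpins lie on chromosome 11 plus strand (GRCm38, Mir212 at chr11:75173388-75173478 and Mir132 at chr11:75173682-75173747), in an intron of 1700016P03Rik by the GENCODE M21 annotation. miR-212-3p had 42, 61 and 88 reads in DSS_RJA, against 17, 21 and 15 reads in Control, or 7.20, 9.01 and 12.4 CPM in DSS_RJA, against 2.40, 2.71 and 2.32 CPM in Control. Each DSS_RJA library was above each Control library, and the means were 9.52 ± 2.62 CPM in DSS_RJA and 2.48 ± 0.204 CPM in Control (SD, n = 3 each). The log2 fold change was 1.94 ± 0.28 (SE, interval 1.30 to 2.58), a 3.83-fold higher level in DSS_RJA, with an adjusted p of 0.0417 in edgeR. The call was lost without DSS_RJA 2 (adjusted p = 0.364 in edgeR), Control 1 (0.302), Control 2 (0.167) or Control 3 (0.207), and also with DESeq2's size factors in place of TMM (0.0512), library size alone (0.0557), limma-voom (0.0927) and all 9 samples in 1 fit (0.127).

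The other 3 products of the cluster also lay above Control in every library, where 11.1% of all members did, without passing the test. miR-132-3p, the arm of the neighbouring hairpin with the seed of miR-212-3p, had 29.6, 48.3 and 75.5 CPM in DSS_RJA, against 21.6, 25.0 and 20.7 CPM in Control. Its log2 fold change was 1.19 ± 0.33, with an adjusted p of 0.252 in edgeR and 0.0320 without DSS_RJA 1. miR-132-5p had 44.0, 49.5 and 124 CPM in DSS_RJA, against 27.8, 32.1 and 23.2 CPM in Control, with a log2 fold change of 1.39 ± 0.41 that was 0.75 without DSS_RJA 3, where the adjusted p in edgeR was 0.0495 in place of 0.252. miR-212-5p, the fourth arm, had 27, 43 and 65 reads in DSS_RJA, against 32, 33 and 14 reads in Control. DSS_RJA 1 thus had fewer reads than Control 1 and Control 2 and lay above them only after scaling, by a small margin. The log2 fold change of miR-212-5p was 0.87 ± 0.36, or 0.58 without DSS_RJA 3. DSS_RJA 3 held the highest value of the group for miR-212-3p, miR-132-3p and miR-132-5p. The median over the 4 arms was 1.29 in all and 0.78 without DSS_RJA 3.

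Set beside these, the DSS group had a log2 fold change over Control of 3.04 ± 0.39 for miR-212-3p and 2.34 ± 0.28 for miR-132-3p. These values share the Control libraries with those above. Against DSS, which shares the DSS_RJA libraries, DSS_RJA had log2 fold changes of -0.98 ± 0.41 for miR-212-3p, with an interval of -1.93 to -0.03, and -1.01 ± 0.42 for miR-132-3p, with an interval of -1.99 to -0.04. Within a library, the ratio of miR-132-3p to miR-212-3p was 4.12, 5.36 and 6.10 in DSS_RJA, 5.01, 5.10 and 7.20 in DSS, and 9.00, 9.24 and 8.93 in Control. The DSS_RJA and DSS libraries thus lay below Control in this ratio without overlap, and miR-212-3p took a larger part of the pair in them.

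miR-1983 was the other miRNA that rose. It had 47, 95 and 114 reads in DSS_RJA, against 14, 9 and 20 reads in Control, or 8.05, 14.0 and 16.0 CPM in DSS_RJA, against 1.98, 1.16 and 3.09 CPM in Control, and the groups did not overlap. The means were 12.7 ± 4.15 CPM in DSS_RJA and 2.08 ± 0.970 CPM in Control (SD, n = 3 each), a 6.19-fold difference with a log2 fold change of 2.63 ± 0.40 (interval 1.70 to 3.56) and an adjusted p of 0.0417 in edgeR. DSS over Control was 0.99 ± 0.47 and DSS_RJA over DSS was 1.76 ± 0.44, with an interval of 0.74 to 2.79. Unlike miR-212-3p, the point estimate for miR-1983 against Control was larger in DSS_RJA than in DSS. Its hairpin is annotated on chromosome 13 minus strand at chr13:21896918-21897049 (GRCm38) and overlaps no other gene of the GENCODE M21 annotation. Overlap with genes outside that annotation was not tested, nor was whether reads of another kind of RNA were counted as miR-1983. The call was lost without DSS_RJA 2 (adjusted p = 0.364 in edgeR), Control 1 (0.302), Control 2 (0.167) or Control 3 (0.154), and under the same other settings as that of miR-212-3p, with 0.0762 for all 9 samples in 1 fit and the same p for the rest.

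In 4 members every DSS_RJA library was over 2-fold above the Control mean, and these were miR-1983, miR-212-3p, miR-671-5p and miR-7688-5p. The last 2 were named after their values were seen and rest on few reads. miR-671-5p had 20, 28 and 26 reads in DSS_RJA, against 8, 11 and 7 reads in Control, with a log2 fold change of 1.61 ± 0.30 and an adjusted p of 0.0933 in edgeR. Its hairpin overlaps exons of Chpf2 and Smarcd3, and nothing read here states whether the authors' counting used strand. Entries on opposite strands at the same place, such as miR-9-5p and miR-9b-3p, had counts within 2% of each other in each of the 6 libraries. The counts of such pairs thus do not keep the strands apart, and reads of Chpf2 and Smarcd3 cannot be told apart from miR-671-5p. miR-7688-5p had 15, 23 and 34 reads in DSS_RJA, against 4, 11 and 3 reads in Control, with a log2 fold change of 2.09 ± 0.48 and an adjusted p of 0.194 in edgeR. The only member with every DSS_RJA library over 2-fold below the Control mean was miR-141-3p, described with the miR-200 family.

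**Figure D2:**
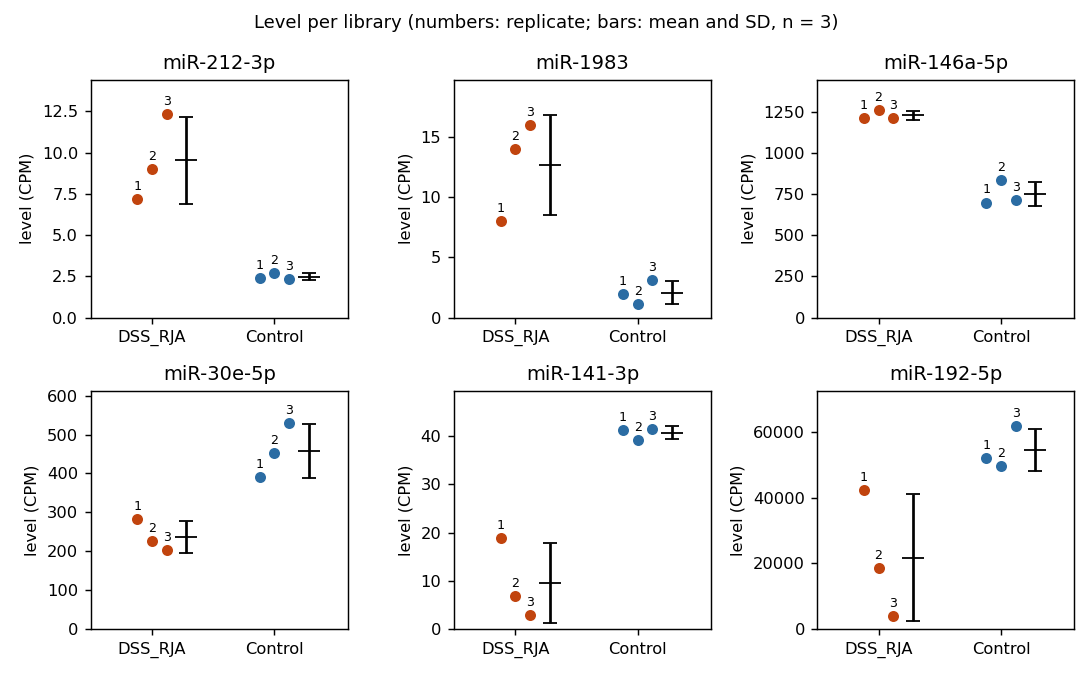
Each of the 6 panels gives the level of 1 miRNA in CPM (linear axis from 0) in DSS_RJA, left, and Control, right, with a numbered point per library and bars for the mean and SD (n = 3). The DSS_RJA libraries lie clear above Control for miR-212-3p, miR-1983 and miR-146a-5p and clear below it for miR-30e-5p, miR-141-3p and miR-192-5p, where DSS_RJA 3 is the lowest.

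Among inflammation-responsive miRNAs, miR-146a-5p stayed above Control by an even margin in all 3 DSS_RJA libraries. miR-146a dampens NF-kB signalling by repressing the adaptors Traf6 and Irak1. It had 1211, 1260.3 and 1214 CPM in DSS_RJA, against 699, 833 and 714 CPM in Control. The DSS_RJA values lay close together and above every Control value. The log2 fold change was 0.71 ± 0.17 (interval 0.33 to 1.10), with an adjusted p of 0.194 in edgeR, 0.0419 without DSS_RJA 3 and 0.00621 with DESeq2. DSS over Control was 1.37 ± 0.19 and DSS_RJA over DSS was -0.53 ± 0.23, with an interval of -1.06 to -0.0031, or -1.17 to 0.08 without DSS_RJA 3.

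miR-146b-5p, which has the same seed but comes from another locus, was uneven. It had 547, 915 and 1956 CPM in DSS_RJA, against 494, 581 and 517 CPM in Control, so that DSS_RJA 1 lay inside the Control range and DSS_RJA 3 far above it. Its log2 fold change was 1.10 ± 0.42, or 0.46 without DSS_RJA 3, with an adjusted p of 0.281 in edgeR. miR-21a-5p, the second most abundant miRNA of these colons and a common marker of inflamed and growing tissue, had 89347, 80313 and 116648 CPM in DSS_RJA, against 69460.1, 81388 and 102951 CPM in Control. The groups overlapped, with a log2 fold change of 0.17 ± 0.22, or 0.0039 without DSS_RJA 3, and an interval of -0.34 to 0.69. Of the 4 tested members of the inflammation list, 0 passed the test, all 4 were positive, and the median was 0.79 in all and 0.43 without DSS_RJA 3.

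miRNAs of white blood cells were uneven between the DSS_RJA libraries. miR-223-3p, which marks neutrophils and other myeloid cells, had 13.9, 20.4 and 91.3 CPM in DSS_RJA, against 12.4, 11.9 and 11.1 CPM in Control. Every DSS_RJA value was above Control, but DSS_RJA 3 was far above DSS_RJA 1 and 2. The log2 fold change of miR-223-3p was 1.83 ± 0.66 in all and 0.54 without DSS_RJA 3, with an adjusted p of 0.252 in edgeR. The other arm, miR-223-5p, had 26, 59 and 176 reads in DSS_RJA, against 33, 18 and 13 reads in Control, with the groups overlapping. Its log2 fold change was 2.08, or 1.14 without DSS_RJA 3. miR-142a-5p, made by blood cells of all lineages, had 13.9, 25.0 and 41.6 CPM in DSS_RJA, against 19.1, 28.9 and 51.8 CPM in Control, with the groups overlapping. Its log2 fold change was -0.31, or -0.76 without DSS_RJA 3. The other arm, miR-142a-3p, had 44, 93 and 228 reads in DSS_RJA, against 76, 145 and 116 reads in Control, also with the groups overlapping. The median of the 4 tested members of the myeloid list was 1.00 in all and -0.01 without DSS_RJA 3. miR-150-5p, abundant in mature lymphocytes, had 149, 970.0 and 963 CPM in DSS_RJA, against 391, 502 and 447 CPM in Control. DSS_RJA 1 was below every Control value and DSS_RJA 2 and 3 were above, so that the log2 fold change of 0.64 ± 0.59 became 1.15 without DSS_RJA 1, with an adjusted p of 0.0205 in edgeR, and 0.33 without DSS_RJA 3. miR-342-5p, also a lymphocyte miRNA, had 2.23, 7.83 and 7.03 CPM in DSS_RJA, against 2.26, 2.71 and 2.63 CPM in Control, with the same library low and an adjusted p of 0.0294 without it in place of 0.281. The lymphocyte list of 8 tested members had 4 positive and 4 negative values, a median of 0.18 in all and 0.06 without DSS_RJA 3, and 0 members that passed.

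The miR-30 family lay below the untreated level, in 4 of its 5 guide arms without overlap, where 14% of all members lay below. That share was larger among abundant members, at 14 of 70 from 100 to 1000 CPM and 13 of 37 at 1000 CPM or more. miR-30 miRNAs are found in many cell types and repress regulators of differentiation. miR-30e-5p had 282, 226 and 202 CPM in DSS_RJA, against 391, 452 and 529.8 CPM in Control, the smallest p among lower members. Its log2 fold change was -0.95 ± 0.20 (interval -1.42 to -0.48), with an adjusted p of 0.177 in edgeR, 0.0320 without DSS_RJA 1, 0.0469 without DSS_RJA 3 and 0.00940 with DESeq2. miR-30a-5p, the most abundant of the family, had 7502, 5034 and 4328 CPM in DSS_RJA, against 8055, 9890.4 and 9982 CPM in Control, with a log2 fold change of -0.73 ± 0.24. Without DSS_RJA 1 its adjusted p in edgeR was 0.0320 in place of 0.252, and so was that of miR-30c-5p, whose log2 fold change was -0.75 ± 0.19. DSS_RJA 1 was the nearest to Control for both. miR-30d-5p had a log2 fold change of -0.59 ± 0.18.

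The fifth guide arm, miR-30b-5p, stood apart from its family. It had 212, 208 and 157 CPM in DSS_RJA, against 172, 191 and 211 CPM in Control, with the groups interleaved, a log2 fold change of 0.0036 ± 0.18, or 0.13 without DSS_RJA 3, and an interval of -0.42 to 0.43. The family's median was -0.73 in all and -0.57 without DSS_RJA 3, and 0 of the 5 passed the test. miR-30e and miR-30c-1 lie in introns of Nfyc on chromosome 4 minus strand (GRCm38, chr4:120772606-120772697 and chr4:120769534-120769622), and miR-30a lies on chromosome 1 plus strand (chr1:23272269-23272339). miR-30c-5p also comes from miR-30c-2, on chromosome 1 plus strand like miR-30a (chr1:23291701-23291784). miR-30a-5p and miR-30e-5p differ by 1 base, and the handling of reads with several matches is not given. The lower level thus cannot be assigned to single loci. DSS over Control was -1.03 ± 0.23 for miR-30e-5p, -0.31 ± 0.18 for miR-30a-5p and -0.25 ± 0.14 for miR-30c-5p, and DSS_RJA over DSS was 0.20 ± 0.27, -0.30 ± 0.26 and -0.38 ± 0.22.

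Seed families gave further sets of like sign. Of the 11 seeds shared by at least 3 members with a sequence, the one of miR-30a, miR-30c and miR-30e had the lowest median. All 3 lay below Control without overlap. They were counted here without miR-30d-5p and miR-30b-5p of the same family, and miR-30b-5p overlapped Control. The 4 guide arms of miR-181, which tunes lymphocyte development, were all negative, with values from -0.69 to -0.26, and 3 of them lay below Control without overlap, where 14% of all members did. miR-181b-5p, the nearest to 0 of the 4, was -0.09 without DSS_RJA 3. Of these, miR-181d-5p had 42.7, 30.0 and 29.4 CPM in DSS_RJA, against 52.8, 49.4 and 62.8 CPM in Control, with an adjusted p of 0.252 in edgeR. The 9 let-7 family guide arms, which restrain growth genes, had a median of -0.28. Of the 9, 4 lay below Control without overlap, beside 14% of all members and a larger share of abundant ones. miR-125a-5p, miR-125b-5p and miR-351-5p, which share another seed, had the highest median of the 11, with values from 0.28 to 0.50. The lowest value of the 3 without DSS_RJA 3 was 0.24, for miR-351-5p.

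let-7 members had values of both signs. let-7c-5p had 1655, 1536 and 1166 CPM in DSS_RJA, against 1874, 2085 and 1951 CPM in Control, wholly below Control, with a log2 fold change of -0.44 ± 0.19. let-7i-5p had 3657, 5717 and 6045 CPM in DSS_RJA, against 3290.0, 3524 and 4042 CPM in Control, with DSS_RJA 1 inside the Control range and the others above it, and a log2 fold change of 0.51 ± 0.23. The intervals were -0.88 to 0.0046 for let-7c-5p and -0.03 to 1.04 for let-7i-5p. For 8 of the 9 the interval lay within the 2-fold band.

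**Figure D3:**
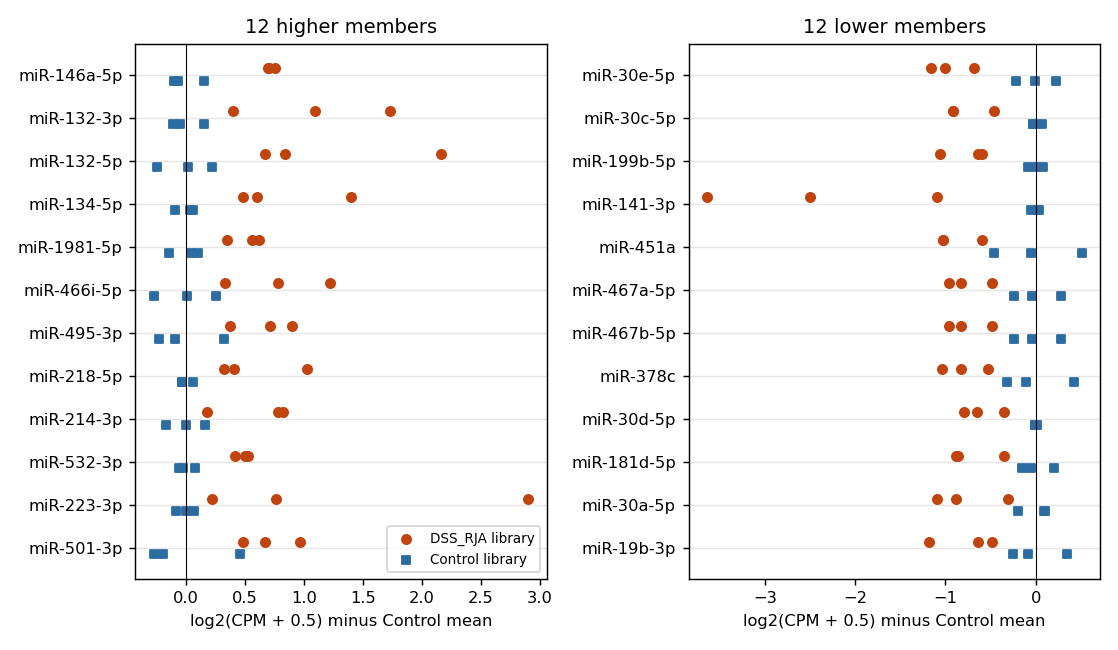
For the 12 higher (left) and 12 lower (right) members with the smallest p among those whose groups did not overlap at a mean of at least 10 CPM and that missed the test, each circle is a DSS_RJA library and each square a Control library, as log2 of CPM plus 0.5 minus the Control mean. The circles of miR-146a-5p lie close together, whereas those of miR-223-3p and miR-141-3p are spread out to 2.90 and -3.64.

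Further members above Control without overlap, at a mean of at least 10 CPM, were miR-134-5p, miR-1981-5p, miR-466i-5p, miR-495-3p, miR-218-5p, miR-214-3p, miR-532-3p and miR-501-3p. Their log2 fold changes ran from 0.51 for miR-532-3p to 0.91 for miR-134-5p, and none passed the test. miR-134 and miR-495 belong to the imprinted Dlk1-Dio3 cluster. miR-134-5p had 22.6, 24.5 and 43.0 CPM in DSS_RJA, against 16.7, 14.9 and 16.4 CPM in Control, highest in DSS_RJA 3, without which its log2 fold change was 0.56. miR-218-5p, encoded in introns of the Slit guidance genes, had 111, 117 and 181 CPM in DSS_RJA, against 92.1, 86.2 and 86.4 CPM in Control. This gave a log2 fold change of 0.62 ± 0.22, or 0.37 without DSS_RJA 3. miR-214-3p, a mesenchymal miRNA, had 69.6, 109 and 106 CPM in DSS_RJA, against 68.7, 61.5 and 54.4 CPM in Control. miR-466i-5p had 26.7, 19.5 and 14.2 CPM in DSS_RJA, against 9.18, 13.4 and 11.3 CPM in Control, and its adjusted p in edgeR was 0.0469 without DSS_RJA 3 in place of 0.252.

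On the lower side the further members were miR-199b-5p, miR-451a, miR-467a-5p, miR-467b-5p, miR-378c and miR-19b-3p. miR-199b-5p, a mesenchymal miRNA, had 23.0, 17.0 and 23.6 CPM in DSS_RJA, against 33.9, 36.1 and 38.0 CPM in Control, while miR-199a-5p, a relative from other loci, had 178, 130.3 and 299 CPM in DSS_RJA, against 234, 249 and 246 CPM in Control, with the groups overlapping. The log2 fold change of miR-199a-5p was -0.26, or -0.66 without DSS_RJA 3. miR-451a, the main miRNA of red blood cells, had 57.9, 58.1 and 78.3 CPM in DSS_RJA, against 86.3, 115 and 169 CPM in Control. Another red cell miRNA, miR-486a-5p, had 109, 94.5 and 62.1 CPM in DSS_RJA, against 108, 93.8 and 86.4 CPM in Control, with the groups overlapping and a log2 fold change of -0.12 ± 0.24, or 0.09 without DSS_RJA 3. Its counts were within 2% of those of miR-486a-3p, so these arms are not told apart. miR-144-3p, made from the hairpin beside miR-451a, had 0 reads in every DSS_RJA library, against 2, 1 and 0 reads in Control, too few to compare. miR-467a-5p and miR-467b-5p had the same count in every library, so they are uncertain as separate miRNAs and are taken as 1 measurement, at -0.79 ± 0.23. Without DSS_RJA 3 the adjusted p in edgeR was 0.0469 for miR-199b-5p and miR-451a and 0.0495 for miR-467a-5p, in place of 0.252 for each. miR-19b-3p, of the growth-promoting miR-17 cluster, had 9.43, 8.42 and 5.62 CPM in DSS_RJA, against 11.2, 12.6 and 17.2 CPM in Control.

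The miRNAs of the colon epithelium differed widely between the 3 DSS_RJA libraries, with very low values in DSS_RJA 3. The 8 epithelial markers summed to 83377, 45068 and 8298 CPM in DSS_RJA 1, 2 and 3, against 90106, 86334 and 104157 CPM in Control. In bulk colon, fewer cells of a type and less RNA per cell cannot be told apart. miR-192-5p, a hallmark of gut epithelium that takes part in cell cycle control, had 42440.3, 18495 and 4033 CPM in DSS_RJA, against 51939, 49754 and 61704 CPM in Control. All 3 DSS_RJA values were below Control, but they spanned 3.40 log2 units, and the log2 fold change was -1.33 ± 0.68 with an adjusted p of 0.384 in edgeR. Without DSS_RJA 3 it was -0.84, and without DSS_RJA 1 it was -2.27. miR-194-5p, from hairpins beside miR-192 on chromosome 19 and beside miR-215 on chromosome 1, had 5055, 3309.6 and 429.5 CPM in DSS_RJA, against 5705, 5351 and 5418 CPM in Control. miR-215-5p had 6263, 1760.3 and 429 CPM in DSS_RJA, against 4954, 4752 and 6465 CPM in Control, with DSS_RJA 1 inside the Control range. Without DSS_RJA 3 the log2 fold change was -0.39 for miR-194-5p, in place of -0.91, and -0.43 for miR-215-5p, in place of -0.94. Of the 7 tested members of these clusters 0 passed, all 7 were negative, and the median was -0.82 in all and -0.36 without DSS_RJA 3.

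Most other epithelial miRNAs named here were also lowest in DSS_RJA 3. miR-205-5p, a miRNA of squamous and basal epithelium, had 21.1, 10.0 and 0.562 CPM in DSS_RJA, against 32.2, 30.4 and 26.6 CPM in Control, the widest range of any member with a mean of at least 10 CPM. miR-203-3p, which limits the growth of barrier epithelium, had 473, 276 and 94.1 CPM in DSS_RJA, against 376, 396 and 479 CPM in Control. The cluster of miR-183, miR-96 and miR-182, known from sensory cells and also made in gut epithelium, was lowest in DSS_RJA 3. Its abundant member miR-182-5p had 2628, 1980.0 and 379 CPM in DSS_RJA, against 2199.5, 2490.4 and 2397 CPM in Control. The 4 tested arms include miR-183-3p, which passed the read minimum only through Control. The median of this cluster was -0.51 in all and -0.06 without DSS_RJA 3. Without that library the log2 fold change of miR-182-5p was -0.04, in place of -0.51. It was -0.94 for miR-205-5p, in place of -1.51, and -0.15 for miR-203-3p, in place of -0.57. miR-375-3p, made by endocrine cells and goblet cells of the gut, had 4085, 3416 and 249 CPM in DSS_RJA, against 2288, 2202 and 2836 CPM in Control, above every Control value in DSS_RJA 1 and 2 and far below in DSS_RJA 3. The log2 fold change was 0.08 ± 0.78, or 0.62 without DSS_RJA 3. miR-7a-5p, from the same list of endocrine miRNAs, ran the other way, at 1172, 1909 and 2101 CPM in DSS_RJA, against 1014, 1339.9 and 1948 CPM in Control, with a log2 fold change of 0.27 ± 0.31, or 0.10 without DSS_RJA 3. No member of these lists passed the test, and their intervals were wide, as in -1.72 to 1.88 for miR-375-3p.

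Markers of other cell types also differed between these libraries. The summed smooth muscle markers were 710815, 653774 and 627175 CPM in DSS_RJA, against 760077, 748130 and 730652 CPM in Control. The summed myeloid markers were 35.3, 59.1 and 165.0 CPM in DSS_RJA, against 42.2, 59.4 and 80.9 CPM in Control. The lymphocyte markers summed to 248, 1205 and 1181 CPM in DSS_RJA, against 485, 637 and 537 CPM in Control, and the endothelial markers to 3636, 3825 and 4854 CPM in DSS_RJA, against 3013, 3240 and 3335 CPM in Control. Nearly all of the endothelial sum was miR-126a-3p. The part of cell makeup in the epithelial and immune values was not tested.

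**Figure D4:**
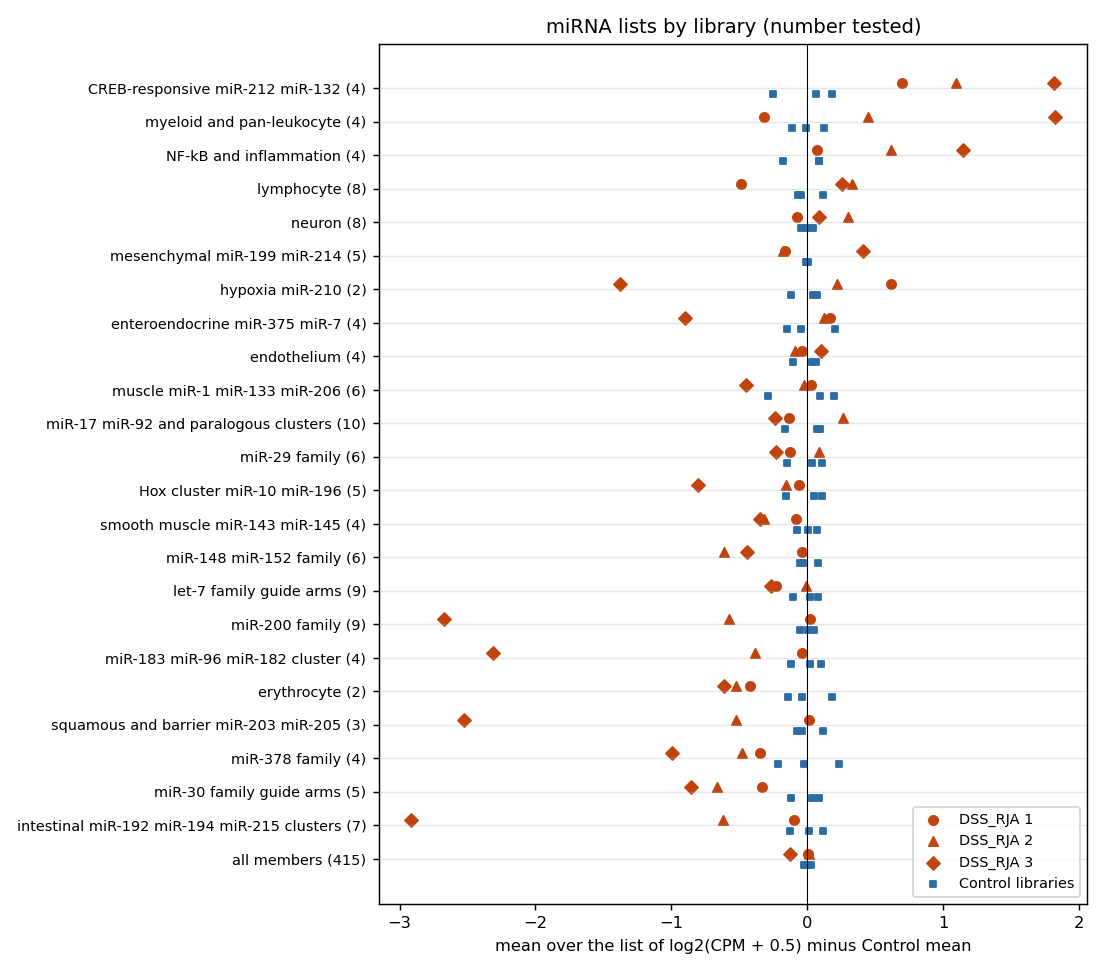
For each list, with its number of tested members, symbols give the mean over the list of log2(CPM + 0.5) minus the Control mean in DSS_RJA 1 (circle), DSS_RJA 2 (triangle), DSS_RJA 3 (diamond) and the Control libraries (squares). DSS_RJA 3 lies at -2.91 for the intestinal clusters, where DSS_RJA 1 lies at -0.0972.

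Within the miR-200 family, which keeps cells epithelial by repressing Zeb1 and Zeb2, the values differed between members. miR-200a-3p had 4242, 2367 and 326 CPM in DSS_RJA, against 6676, 6191 and 7711 CPM in Control, below Control in all 3 libraries, with a log2 fold change of -1.57 ± 0.72 that was -1.05 without DSS_RJA 3, where the adjusted p in edgeR was 0.0469 in place of 0.324. miR-141-3p, which has the same seed but lies on chromosome 6 (GRCm38, chr6:124717914-124717985, minus strand), had 18.9, 6.80 and 2.81 CPM in DSS_RJA, against 41.4, 39.2 and 41.6 CPM in Control. Its log2 fold change of -2.12 ± 0.57 was the lowest of the 415, with an adjusted p of 0.252 in edgeR, 0.0159 without DSS_RJA 1, 0.0419 without DSS_RJA 3 and 0.0154 with DESeq2. miR-200b-3p, the neighbour of miR-200a on chromosome 4 with the other seed, had 20150.0, 15322 and 2428 CPM in DSS_RJA, against 16346, 15927 and 17889 CPM in Control, with DSS_RJA 1 above every Control value. Its log2 fold change was -0.40 ± 0.62, and 0.09 without DSS_RJA 3. The other members with this seed were miR-200c-3p, at -0.64 ± 0.57 in all and -0.17 without DSS_RJA 3, and miR-429-3p, at -0.40 ± 0.63 in all and 0.09 without it. The groups of all 3 overlapped, and their lower level in DSS_RJA rests on DSS_RJA 3. Over the 9 tested arms of the family 0 passed, 8 were negative, 2 lay below Control without overlap, against 14% of all members, and the median was -0.48 in all and -0.05 without DSS_RJA 3.

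Ratios within a library set aside the level of the whole family. They were chosen after the values were seen and are given without a test. Ligation favours some RNA ends, so a ratio is compared between libraries and not read as a count of molecules. The ratio of miR-200a-3p to miR-200b-3p was 0.211, 0.155 and 0.134 in DSS_RJA, 0.594, 0.405 and 0.522 in DSS, and 0.408, 0.389 and 0.431 in Control. DSS_RJA lay below both DSS and Control in every library, DSS_RJA 1 included. The ratio of miR-429-3p to miR-200b-3p, 2 members with 1 seed and 1 transcript, was 0.158, 0.144 and 0.144 in DSS_RJA, 0.147, 0.134 and 0.155 in DSS, and 0.154, 0.152 and 0.149 in Control, with the groups overlapping. For miR-141-3p over miR-200c-3p, the like pair on chromosome 6, the ratio was 0.00933, 0.00424 and 0.00932 in DSS_RJA, 0.0159, 0.0138 and 0.00786 in DSS, and 0.0214, 0.0206 and 0.0184 in Control.

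Ratios of the arms of these hairpins also differed. miR-200a-3p over its own partner arm miR-200a-5p was 3.13, 2.65 and 1.28 in DSS_RJA, 5.74, 5.62 and 6.13 in DSS, and 5.82, 5.58 and 6.29 in Control. miR-141-3p over miR-141-5p was 0.651, 0.523 and 1.00 in DSS_RJA, 1.11, 1.81 and 0.882 in DSS, and 1.80, 1.72 and 1.95 in Control. In DSS_RJA this ratio rests on few reads, 110, 46 and 20 of the 3p arm and 169, 88 and 20 of the 5p arm. In both hairpins the 3p arm, the one with the shared seed, was lower against its partner in DSS_RJA than in Control, and for miR-200a also lower than in DSS. The sequences of miR-200a-3p and miR-141-3p are close, and the handling of reads with several matches is not given. Their values may thus not be independent. miR-200b-3p over miR-200b-5p, with the other seed, was 70.4, 47.4 and 71.4 in DSS_RJA, 54.3, 79.9 and 46.7 in DSS, and 73.4, 76.9 and 80.6 in Control, so it too lay below Control in every DSS_RJA library, by a smaller margin. The miR-200c hairpin had 16, 14 and 14 reads of its 5p arm in DSS_RJA, against 15, 16 and 11 in Control, too few for the comparison of arms. Across the 52 hairpins with a mean of at least 50 reads for each arm, of 109 with both arms tested, 20 (38.5%) had a ratio of arms whose groups did not overlap between DSS_RJA and Control. A ratio that does not overlap is thus common here. By size, miR-200a and miR-141 had the 2 largest differences of the 52, at 1.42 and 1.38 on the log2 scale (5p over 3p, DSS_RJA minus Control).

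**Figure D5:**
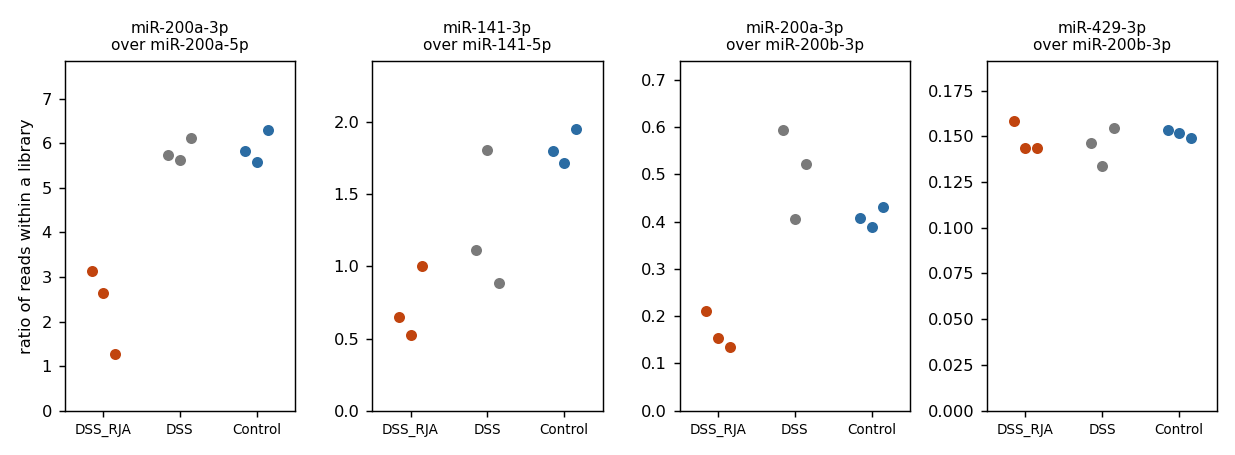
Ratios of reads within a library (linear axes from 0), 1 point per library, for DSS_RJA, DSS and Control. The ratios with miR-200a-3p or miR-141-3p on top are lower in all 3 DSS_RJA libraries than in Control, while miR-429-3p over miR-200b-3p overlaps between the groups.

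miR-210, the miRNA most tightly tied to hypoxia and HIF, was above the Control range in DSS_RJA 1 and below it in DSS_RJA 3, in both arms. miR-210-3p had 114, 75.3 and 25.2 CPM in DSS_RJA, against 95.1, 82.7 and 73.6 CPM in Control, and miR-210-5p had 20.4, 17.6 and 5.34 CPM in DSS_RJA, against 10.7, 13.0 and 11.1 CPM in Control. The log2 fold change was -0.23 ± 0.46 for miR-210-3p and 0.30 ± 0.44 for miR-210-5p. Without DSS_RJA 3 that of miR-210-3p turned positive, at 0.17, and that of miR-210-5p was 0.70. In all 6 libraries the intervals were -1.30 to 0.84 for miR-210-3p and -0.71 to 1.32 for miR-210-5p, so the data allow a 2-fold lower level of the 3p arm and a 2-fold higher level of the 5p arm. DSS over Control was -1.82 ± 0.39 for miR-210-3p, and DSS_RJA over DSS was 1.70 ± 0.60, with an interval of 0.32 to 3.09, or 2.10 without DSS_RJA 3.

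Families tied to metabolism and methylation control lay lower in part. miR-378c, of the miR-378 family that acts in mitochondrial metabolism, had 443, 359.9 and 312 CPM in DSS_RJA, against 594, 514 and 857 CPM in Control, with a log2 fold change of -0.82 ± 0.24. miR-378a-3p, the abundant member, had 11008, 9942 and 4465 CPM in DSS_RJA, against 11531, 10998 and 12622 CPM in Control, and all 4 tested members were negative, with a median of -0.64 in all and -0.43 without DSS_RJA 3. The log2 fold change of miR-378a-3p was -0.47, or -0.16 without DSS_RJA 3. miR-148a-3p, which represses the DNA methyltransferase Dnmt1, had 11737, 4606 and 4338 CPM in DSS_RJA, against 11997, 12512 and 14565 CPM in Control. DSS_RJA 1 was just below the Control range and DSS_RJA 2 and 3 far below it, so that the log2 fold change of -0.92 ± 0.39 became -1.51 without DSS_RJA 1, with an adjusted p of 0.0159 in edgeR in place of 0.309. miR-152-3p, with the same seed, had 230.0, 153 and 274 CPM in DSS_RJA, against 186, 181 and 182 CPM in Control, with the groups overlapping. Its log2 fold change was 0.26, or 0.06 without DSS_RJA 3.

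Muscle miRNAs were near the untreated level, with intervals inside the 2-fold band for 3 of the 4 tested arms of miR-143 and miR-145. The median of these 4 was -0.25, and 3 lay below Control without overlap, where 14% of all members and a larger share of abundant ones did. miR-143-3p had 704764, 647822 and 621668 CPM in DSS_RJA, against 752609.7, 740004 and 724158 CPM in Control, wholly below Control but with a log2 fold change of only -0.17 ± 0.14 and an interval of -0.50 to 0.17, which turned positive with library size alone. miR-145a-5p, its neighbour, had 6050.2, 5952 and 5507 CPM in DSS_RJA, against 7468, 8126 and 6494 CPM in Control, with a log2 fold change of -0.34 ± 0.17. The passenger arm miR-143-5p had 155, 99.4 and 99.9 CPM in DSS_RJA, against 176, 176 and 183 CPM in Control, with a log2 fold change of -0.60 ± 0.21 and an adjusted p of 0.252 in edgeR, 0.0417 without DSS_RJA 1. miR-1a-3p, of heart and skeletal muscle and gut muscle layers, had a log2 fold change of -0.31 ± 0.18, or -0.19 without DSS_RJA 3. miR-133a-3p, made with it, had -0.16 ± 0.21, or -0.03 without that library, which also turned positive with library size alone.

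Several other lists had medians near 0. The list medians were -0.07 for the miR-1, miR-133 and miR-206 list, -0.11 for miR-29, -0.08 for the miR-17 cluster and its paralogs and -0.02 for endothelial miRNAs, and each turned positive with library size alone. The first 3 also turned positive without DSS_RJA 3, at 0.05, 0.01 and 0.03. For miR-29, which restrains collagen genes, the intervals of 5 of 6 tested members lay within the 2-fold band. The Hox cluster miRNAs had a median of -0.24 over 5 tested members, the mesenchymal list of miR-199 and miR-214 0.08 over 5, which turned to -0.09 without DSS_RJA 3, the neuronal list 0.16 over 8 and the miR-375 and miR-7 list 0.01 over 4, or 0.11 without DSS_RJA 3. The list of miR-203 and miR-205 had a median of -0.57 over 3, or -0.15 without DSS_RJA 3, the miR-148 and miR-152 list -0.26 over 6 and the red cell list -0.52 over 2, with 0 calls in each. None of the 4 arms of the injury miRNAs miR-31 and miR-135b reached the read minimum, so nothing is reported of them. miR-126a-3p, the endothelial miRNA from the Egfl7 intron, was above Control without overlap, as 11.1% of all members were. It had 3595, 3788 and 4806 CPM in DSS_RJA, against 2968, 3184 and 3275 CPM in Control. Its log2 fold change was 0.37, or 0.23 without DSS_RJA 3. From the same list, miR-221-3p lay below Control without overlap, with a log2 fold change of -0.22. miR-126a-5p had 41.8, 36.6 and 47.9 CPM in DSS_RJA, against 45.2, 55.9 and 60.3 CPM in Control, with the groups overlapping.

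The members held closest to the untreated level, by the larger bound of the interval among those with a mean of at least 100 CPM, were miR-30b-5p, let-7d-3p, miR-99b-5p, miR-100-5p, miR-425-5p and miR-186-5p. miR-99b-5p, of the miR-99 family that represses Mtor, had 1678, 1883 and 1841 CPM in DSS_RJA, against 1644, 1813 and 1730.5 CPM in Control, with an interval of -0.32 to 0.43. miR-100-5p, with the same seed, had 3564, 3909 and 3002 CPM in DSS_RJA, against 3264, 3648 and 3359 CPM in Control. let-7d-3p had 147, 165 and 149 CPM in DSS_RJA, against 162, 145 and 135 CPM in Control, with an interval of -0.31 to 0.43. In each of these 6 the groups overlapped, and a 2-fold difference from Control in either direction lay outside the interval. For miR-99b-5p, DSS over Control was 0.52 ± 0.16, and for miR-186-5p it was -0.02 ± 0.15.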

How the data were processed

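Small RNA of 9 mouse colon samples was sequenced, 3 each of DSS_RJA, DSS and Control. Per the labels' protocols, adaptors were ligated with an NEBNext small RNA kit and inserts were amplified by PCR. Bowtie and DESeq were used at some step, per the submitters' processing notes. Their versions, the build and annotation, strand use and the handling of reads with several matches: not given in the sources used here. Per the file headers, the authors deposited unnormalized counts for each mature miRNA, and TPM values, which equalled the count divided by the library total, scaled to 1000000 with no term for length. The TPM values were only used for this check.

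The miRNAs and lists described were chosen with earlier results of these data known. The deposited counts of the 6 DSS_RJA and Control libraries were tested with edgeR 4.0.16 (quasi-likelihood, TMM, no covariate) in R 4.3.3, with Benjamini-Hochberg adjustment over the 415 members at a threshold of 0.05. A standard error is the log2 fold change, without its sign, over the root of its F value, and 95% intervals use the fit's total degrees of freedom. DSS over Control and DSS_RJA over DSS were each fitted on their own 6 libraries, as values without calls. With 3 samples against 3, the smallest p of an exact permutation test is 0.1, so such tests were not run. Reads amplified without molecular identifiers are not independent molecules, and depth is given as library totals.

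Members named were drawn by a set rule, and not every member it gave is described. It took those called and the 12 smallest p in each direction without overlap at a mean of at least 10 CPM. It also took both arms of miR-210, the 5 most abundant, and the 2 smallest p and 2 most abundant members of each list. The 6 closest to Control and the 6 of widest range in DSS_RJA completed it. miR-671-5p, miR-7688-5p, miR-212-5p, miR-125a-5p, miR-125b-5p, miR-351-5p and the within-library ratios were named after their values were seen. The 1 numbered entry that met the read minimum was left out of the fit. Alternatives used DESeq2 1.42.0, limma 3.58.1, other scalings and filters, all 9 samples, a replicate block and each library left out. Every pair of replicates differed beyond sampling noise (chi-square of at least 42.7 for each degree of freedom). The tests were run on simulated data with the same spread in both groups. The larger spread of DSS_RJA was not simulated, so that check does not cover it. Precursor positions come from GENCODE M21 (GRCm38).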

Additional observations from a re-analysis of the deposited data

Results flagged for a closer look

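Among the 29 entries that the authors numbered themselves and that carry no miRNA name, novel_323 had 11 reads over the 3 DSS_RJA libraries, as 5, 5 and 1, against 1 read over the 3 Control libraries, as 0, 1 and 0. It was the 1 of these entries with a higher CPM in each DSS_RJA library than in any Control library. It lay outside the members compared, and at these counts the difference was not tested.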

How the results depend on the processing

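The number of members called, 2 with edgeR and TMM (2 higher, 0 lower), was 0 with DESeq2's size factors, library size alone, limma-voom, a minimum of 50 reads in 3 libraries (which removes miR-212-3p and miR-1983) and all 9 samples in 1 fit. It was 7 with DESeq2 (5 higher, 2 lower) and 26 with no filter on low counts (14 higher, 12 lower). It was 2 with TMM factors set without miR-143-3p, with the numbered entries, with 1 of each near-identical set and with robust estimation, which was added after the data were seen, as were the values of DSS_RJA over DSS without DSS_RJA 3. With each library left out in turn it ranged from 0 to 17, with 0 to 9 higher and 0 to 8 lower, and the 104 members whose groups did not overlap became 127 to 200, with 60 to 101 above and 67 to 99 below. Library size alone turned the 46 above and 58 below into 83 and 26, and the minimum of 50 reads left 38 below. The members with an interval within the 2-fold band numbered 152 to 245 with a library left out. The causes were not tested, beyond the fewer miRNAs or libraries that some settings have by construction.

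Over the settings that kept them the log2 fold change ranged from 1.70 to 2.16 for miR-212-3p and from 2.33 to 3.02 for miR-1983, and no value of a called member changed sign. Among 89 named members, 7 changed sign with library size alone: let-7f-5p, miR-10a-5p, miR-133a-3p, miR-143-3p, miR-29a-3p, miR-29c-5p and miR-486a-5p. The labels give each group the replicate numbers 1 to 3 and do not say whether the numbers pair the samples. The deviations of same-numbered DSS_RJA and Control samples correlated at 0.17, -0.16 and -0.04. Those of differently numbered samples ran from -0.34 to 0.33. With 3 samples per group and DSS_RJA 3 apart from the rest, these values cannot decide whether the samples are paired. A fit with the replicate block called 0 members (adjusted p = 0.170 in edgeR for both miR-212-3p and miR-1983). Depth limits the scarce members: miR-212-3p and miR-1983 rest on at most 21 reads in any Control library.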
